A study of Mus musculus with 2 samples.

Results

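The chaperonin CCT, also called TRiC, is a cytosolic machine built from 8 related subunits, and the transcripts of its 8 subunit genes, Tcp1, Cct2, Cct3, Cct4, Cct5, Cct6a, Cct7 and Cct8, are described here. They were chosen by name as the known subunits of a single complex, and not by a cut on their values. Earlier results of these data were known when they and the gene lists set beside them were chosen. All 8 were found among the 25749 Ensembl mouse genes of the deposited tables. The tables come from the mouse embryonic stem cell line E14.1, from cells with T136A AHCY and cells with WT AHCY. AHCY is the enzyme that breaks down S-adenosylhomocysteine, and T136A names the replacement of a threonine by an alanine in it. Each genotype was sequenced as 1 library, and the sources used here do not say how the T136A cells were made, how many clones they stand for or whether another allele remained. No spread between cultures can be measured, so no difference reported has a replicate check or a p-value. In bulk RNA, a change in the mix of cells and a change in RNA per cell cannot be told apart.

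In the cell, each of the stacked pair of CCT rings holds 1 copy of every subunit in a fixed order. The rings stand back to back, each encloses a chamber of its own, and a built-in lid closes over an unfolded client as ATP is hydrolysed. Actin and tubulin depend on CCT for folding, and the cell cycle activator CDC20 and other proteins built of WD40 repeats are further clients. Prefoldin delivers newly made actin and tubulin to the rings, and phosducin-like proteins act with CCT as cofactors. Pluripotent stem cells are known for high levels of CCT subunits.

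The values are RPKM, reads scaled to the length of the gene model and the read total of the library. The whole reads behind them could be recovered for all 8 subunits, against implied totals of 18396840 reads in the T136A library and 17506154 reads in the WT library. Intervals given with levels and folds are 95% intervals from these reads (exact Poisson for a level, exact conditional binomial for a fold) and cover counting error only. All 8 of the stem cell markers examined were expressed, from 98.0 RPKM for Klf4 to 1969 RPKM for Dppa5a in the T136A library, and from 106 RPKM for Klf4 to 2182 RPKM for Dppa5a in the WT library. Of these 8 markers, 6 were lower in the T136A library and 2, Zfp42 and Tdgf1, were higher, where 47.4% of all tested genes were higher. Of 10 markers of fibroblast feeder cells, 7 were found and 2 (Thy1 and Pdgfrb) reached 1 RPKM in at least 1 library. Their summed level was 8.0 RPKM in the T136A library and 4.43 RPKM in the WT library, with Postn, Acta2 and Tagln listed at 0 in the WT library, and their part in the results was not tested.

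Transcripts of 7 subunits were higher in the T136A library and that of 1, Cct4, was lower, where 47.4% of all tested genes were higher. The highest ratio was that of Cct7, at 1.51, and the lowest that of Cct4, at 0.905. Together the 8 genes held 124671 reads (0.678% of the implied total) in the T136A library, against 97996 reads (0.560%) in the WT library, a fold of 1.21 (1.20 to 1.22). The genes lie on 8 different chromosomes and the median log2 ratio of all genes on each of these chromosomes lay between -0.10 and -0.01.

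The starts of 4 subunit genes are shown because they belong to the 3 subunits with the highest ratios (Cct7, Cct3 and Cct6a) and, among subunits with a promoter sequence in the table used, to the one with the lowest (Cct5, of whose 2 windows the upstream one is shown). Each stretch of 300 bases runs 5′ to 3′ on the strand of the gene, from 250 bases before the start of transcription to 50 after it, and comes from RefSeq on GRCm38.p6. Capitals mark the CCAAT box, read as CCAAT or ATTGG, and the heat shock pair, a site for heat shock factors reduced to GAANNTTC or TTCNNGAA.
Cct7, chr6:85451255-85451554, plus strand: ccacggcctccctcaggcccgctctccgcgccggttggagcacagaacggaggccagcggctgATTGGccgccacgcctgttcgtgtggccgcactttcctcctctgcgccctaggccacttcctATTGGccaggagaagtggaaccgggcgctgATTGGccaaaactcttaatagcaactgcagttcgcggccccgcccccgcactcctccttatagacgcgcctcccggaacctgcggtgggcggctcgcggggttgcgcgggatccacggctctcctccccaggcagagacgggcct
Cct3, chr3:88296885-88297184, plus strand: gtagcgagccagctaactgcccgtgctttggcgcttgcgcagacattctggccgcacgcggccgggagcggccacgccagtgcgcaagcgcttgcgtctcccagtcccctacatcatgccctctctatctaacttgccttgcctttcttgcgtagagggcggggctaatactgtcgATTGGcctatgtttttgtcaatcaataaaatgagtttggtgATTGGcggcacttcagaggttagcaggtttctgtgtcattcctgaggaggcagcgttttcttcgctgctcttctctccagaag
Cct6a, chr5:129787106-129787405, plus strand: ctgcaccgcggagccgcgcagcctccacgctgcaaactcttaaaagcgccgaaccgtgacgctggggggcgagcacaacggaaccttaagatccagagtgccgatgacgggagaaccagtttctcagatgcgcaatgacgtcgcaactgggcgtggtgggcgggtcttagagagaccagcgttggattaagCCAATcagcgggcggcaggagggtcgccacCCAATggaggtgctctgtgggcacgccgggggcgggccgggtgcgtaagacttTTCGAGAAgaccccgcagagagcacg
Cct5, chr15:31601797-31602096, minus strand: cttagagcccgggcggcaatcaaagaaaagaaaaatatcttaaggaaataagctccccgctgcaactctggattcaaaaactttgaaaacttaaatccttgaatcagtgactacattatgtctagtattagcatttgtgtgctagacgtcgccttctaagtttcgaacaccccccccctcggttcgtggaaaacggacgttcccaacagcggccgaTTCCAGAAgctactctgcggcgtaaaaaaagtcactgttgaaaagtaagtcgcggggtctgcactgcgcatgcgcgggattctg

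The table matched 7 of the 8 subunit genes with 9 windows in all, and Cct4 was not among them. Cct2 and Cct5 had 2 windows each, and the second window of Cct5 (chr15:31601490-31601789), which held none of the motifs searched, is not shown. The CCAAT box occurred in 4 of the 9 windows (those of Cct3, Cct6a, Cct7 and Tcp1) and in 37.4% of all 32851 windows of this length. The Cct7 window held 3 of them, which begin 187, 125 and 95 bases before the start. The heat shock pair occurred in 3 of the 9 windows, of Cct2, Cct5 and Cct6a, and in 15.1% of all windows, whereas the longer triple, the pair GAANNTTC followed by NNGAA, was in 0 of the 9 windows and in 0.603% of all. The GC box GGGCGG was found in 8 of the 9 windows, at least 1 for each of the 7 genes, and in 35.7% of all windows. The ETS site CCGGAAGT was in Cct8 and Tcp1 (3.89% of all windows), the NRF1 site (GCGCA joined to TGCGC) in Cct5 (0.971%), and the E-box CACGTG (7.15%) and the ATF4 element TGATGNAA (3.97%) in none of them. Both strands were searched, and a match describes letters, not binding. A heat shock triple contains the pair, and no other motif in this set contains another.

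Levels are given subunit by subunit in the order of the Greek letters that name the proteins. Tcp1 encodes CCT-alpha and was first known as a protein of the mouse t-complex (ENSMUSG00000068039, GRCm38 chromosome 17, 12915701 to 12925067, plus strand in GENCODE M21). Its level was 95.1 RPKM (93.1 to 97.1) in the T136A library and 82.4 RPKM (80.5 to 84.3) in the WT library, a fold of 1.15 (1.12 to 1.19). It was the least abundant subunit in RPKM in both libraries. Cct2 encodes CCT-beta, which in human cells has been described as a receptor for autophagy of aggregates (ENSMUSG00000034024, chromosome 10, 117051001 to 117063814, minus strand). It stood at 335 RPKM (329 to 340.0) in the T136A library and 267 RPKM (262 to 272) in the WT library, a fold of 1.25 (1.22 to 1.28). Cct2 had the highest RPKM of the 8 in the T136A library, and ranked behind Cct4 and Cct5 in the WT library.

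Cct3, the gene of CCT-gamma (ENSMUSG00000001416, chromosome 3, 88297116 to 88321767, plus strand), was at 143 RPKM in the T136A library and 101 RPKM in the WT library. Its fold of 1.42 (1.39 to 1.46) was the second of the 8, and 86.8% of all tested genes had a lower log2 ratio. Cct4 encodes CCT-delta, in which a missense change causes a sensory neuropathy in rats (ENSMUSG00000007739, chromosome 11, 22990519 to 23003780, plus strand). Its level was 255 RPKM (252 to 259) in the T136A library and 282 RPKM (278 to 286) in the WT library. Cct4 was thus 1.10-fold lower (1.08 to 1.13) in the T136A library, the only subunit with a log2 ratio below 0, and 39.9% of all tested genes had a lower ratio.

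Cct5 encodes CCT-epsilon, and human missense changes in it cause a hereditary sensory neuropathy (ENSMUSG00000022234, chromosome 15, 31590800 to 31601804, minus strand). Its 302 RPKM (298 to 307) in the T136A library stood against 280.3 RPKM (276 to 285) in the WT library. The fold of 1.08 (1.05 to 1.10) was the smallest among the 7 higher subunits. Cct6a encodes CCT-zeta, the form made in somatic cells (ENSMUSG00000029447, chromosome 5, 129786998 to 129846371, plus strand). It was at 197 RPKM (193 to 200.2) in the T136A library and 146 RPKM (143 to 149) in the WT library, a fold of 1.35 (1.31 to 1.38).

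Cct7, the gene of CCT-eta (ENSMUSG00000030007, chromosome 6, 85451514 to 85468475, plus strand), had 149 RPKM (147 to 152) in the T136A library and 98.9 RPKM (97.1 to 101) in the WT library. Its fold of 1.51 (1.48 to 1.55) was the highest of the 8, and 89.7% of all tested genes had a lower ratio. Cct8 encodes CCT-theta, a subunit whose level has been described to limit the amount of assembled complex in human embryonic stem cells (ENSMUSG00000025613, chromosome 16, 87483326 to 87495873, minus strand). Its level was 286 RPKM (282 to 291) in the T136A library and 223 RPKM (219 to 227) in the WT library, a fold of 1.29 (1.26 to 1.32). For each of the 8 subunits, the counting intervals of the levels in the T136A and the WT library did not overlap, which was also so for 59.1% of the 10785 tested genes with recovered reads.

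**Figure D1:**
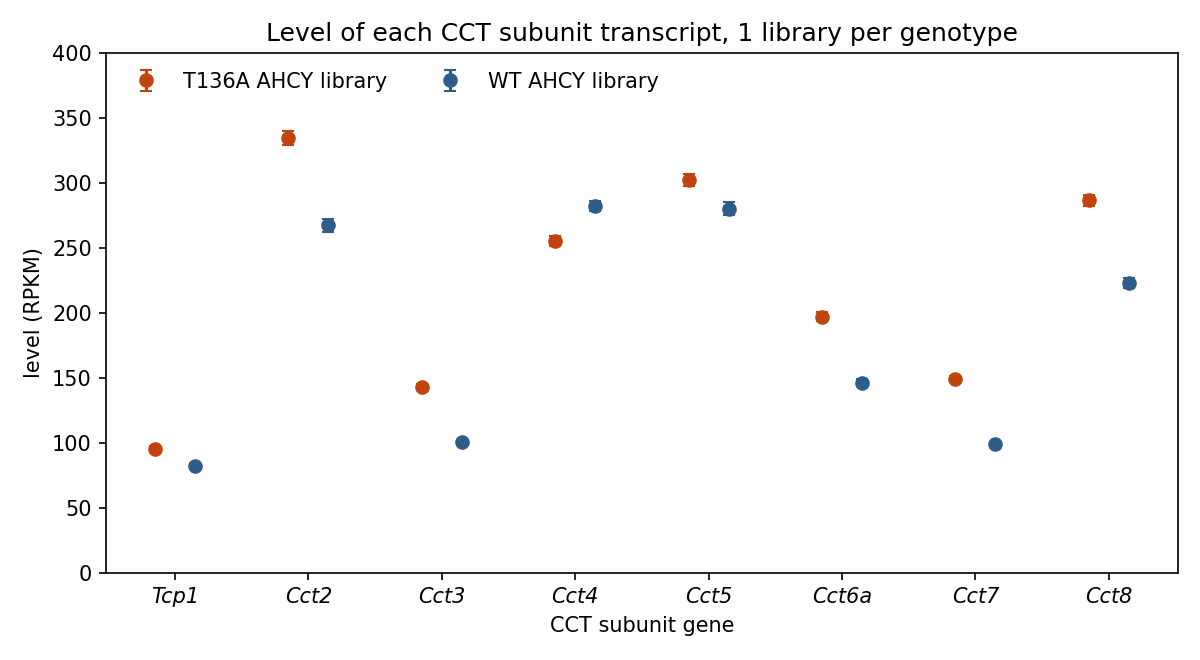
Level of each CCT subunit transcript in RPKM (vertical axis, from 0) in the T136A and the WT library; points are the deposited values of 1 library each and bars are 95% Poisson counting intervals. Every subunit but Cct4 has the higher point in the T136A library, and Tcp1 has the lowest point of the 8 in both libraries.

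These ratios were read against all genes as log2 ratios of T136A over WT after 1 RPKM was added to each value, which understates changes of low genes, for the 12320 genes that reached 1 RPKM in at least 1 library. None of the 8 subunits was at least 2-fold higher, against 3.13% of all genes, and none was at least 2-fold lower, against 3.1%. At least 1.5-fold higher was 1 subunit, Cct7, against 10.4% of all genes, and at least 1.5-fold lower was none, against 11.3%. Cct7 passed that line narrowly, and did not pass it with 5 RPKM added in place of 1 or after quantile normalization. A log2 ratio above 0 was shared by 7 of the 8, against 47.4% of all genes, and the median of the 8 was 0.34, against -0.03 for all genes. Among the 1438 genes at 50 RPKM or more in at least 1 library, which include all 8 subunits, the median was 0.02 and the central 68% ran from -0.40 to 0.51. The interval of the fold lay above 1 for 7 of the 8 and below 1 for Cct4. Among the 10785 tested genes with recovered reads it lay above 1 for 31.8% and below 1 for 36.9%, so at this depth such intervals were common.

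**Figure D2:**
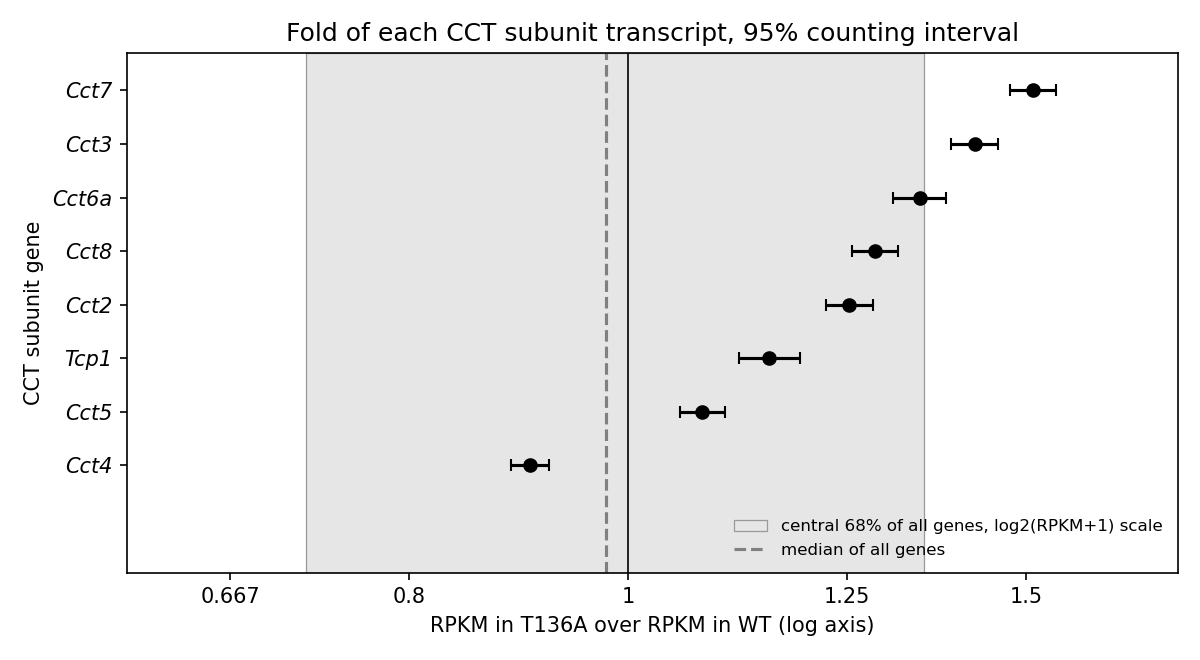
RPKM in the T136A library over RPKM in the WT library for each CCT subunit (horizontal log axis), ordered by fold, with 95% counting intervals as bars; the grey band is the central 68% of all tested genes and the dashed line their median. Cct7 and Cct3 lie above the band, Cct6a near its upper edge, and Cct4 alone lies below 1. The band and the dashed line were computed with 1 RPKM added, which understates changes of low genes, and the points without it. Among genes at 50 RPKM or more in at least 1 library, the central 68% of log2 ratios reached 0.509, and Cct3 had 0.505.

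The rings hold equal numbers of every subunit, so the transcripts can be set beside equal shares of 12.5% each. In the deposited RPKM the shares were far from equal. Cct2 held 19.0% of the sum of the 8 in the T136A library and 18.1% in the WT library. Cct4 held 14.5% in the T136A library and 19.1% in the WT library, and Cct5 17.1% in the T136A library and 18.9% in the WT library. At the other end, Tcp1 held 5.39% in the T136A library and 5.56% in the WT library, and Cct7 held 8.47% in the T136A library and 6.68% in the WT library. The highest subunit stood 3.52 times above the lowest in the T136A library and 3.42 times in the WT library.

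This order depends on the gene lengths used for the division. The length behind a value was close to the union of all annotated exons, retained introns included. It was 6778 bases for Cct7, whose longest coding transcript has 2441 bases, and 6370 bases for Cct3, whose longest coding transcript has 1977. For Tcp1 the lengths were 5030 and 2446 bases. For Cct8 and Cct2 they were much closer together, 3088 and 2394 bases for Cct8 and 2557 and 1959 bases for Cct2. The coding lengths hardly differ, from 1599 bases for Cct6a to 1671 bases for Tcp1, stop codon included. Cct6a has no coding transcript in the annotation used, so its longest processed transcript (2454 bases) and the longest open reading frame stood in.

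Divided by coding length instead, the recovered reads gave shares much closer to one another. In the T136A library 7 of the 8 subunits lay within 1.25-fold of the median subunit level, and in the WT library 6 did, against 2 in the T136A library and 1 in the WT library in deposited RPKM. Cct3 held 13.4% in the T136A library and 11.4% in the WT library on this scale, and Cct7 14.9% in the T136A library and 11.9% in the WT library. Cct2, first in RPKM, held 12.8% in the T136A library and 12.4% in the WT library. Both ends of the order were held by the same genes in both libraries on the coding scale. Cct4 was highest, with 15.9% in the T136A library and 21.3% in the WT library. Tcp1 was lowest, with 6.88% in the T136A library and 7.21% in the WT library, and it was lowest on each of the 3 length scales. Per longest transcript, Cct4 was highest in the WT library (18.9%), but in the T136A library Cct3 was highest (15.1%) and Cct4 held 14.1%. The coding scale counts reads from untranslated stretches but leaves out their length.

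The SD among all 8 subunit transcripts was smaller in the T136A library on all 3 length scales. In RPKM, however, the ratio of highest to lowest was slightly larger there. Cct4 weighs on these SDs. Per coding length it stood at 1.77 times the median subunit level in the WT library and 1.24 times in the T136A library. Per longest transcript it stood at 1.56 times in the WT library and 1.02 times in the T136A library. No SD was computed without Cct4, so whether the other subunits were more evenly matched was not tested. The SD of the log2 levels among the 8 genes was 0.37 in the T136A library and 0.44 in the WT library per coding length, 0.43 in the T136A library and 0.49 in the WT library per longest transcript, and 0.64 in the T136A library and 0.75 in the WT library in RPKM. The share of Cct4 in the T136A library minus that in the WT library was -4.58 percentage points in RPKM and -5.37 points per coding length, the largest difference of the 8 on both scales. The share of Cct7 was 1.79 points higher in RPKM and 2.96 points higher per coding length. Shares sum to a fixed total, so a lower share of one subunit raises those of the others. These lengths assume that all reads come from the transcript named, and the isoforms in use were not analysed here.

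**Figure D3:**
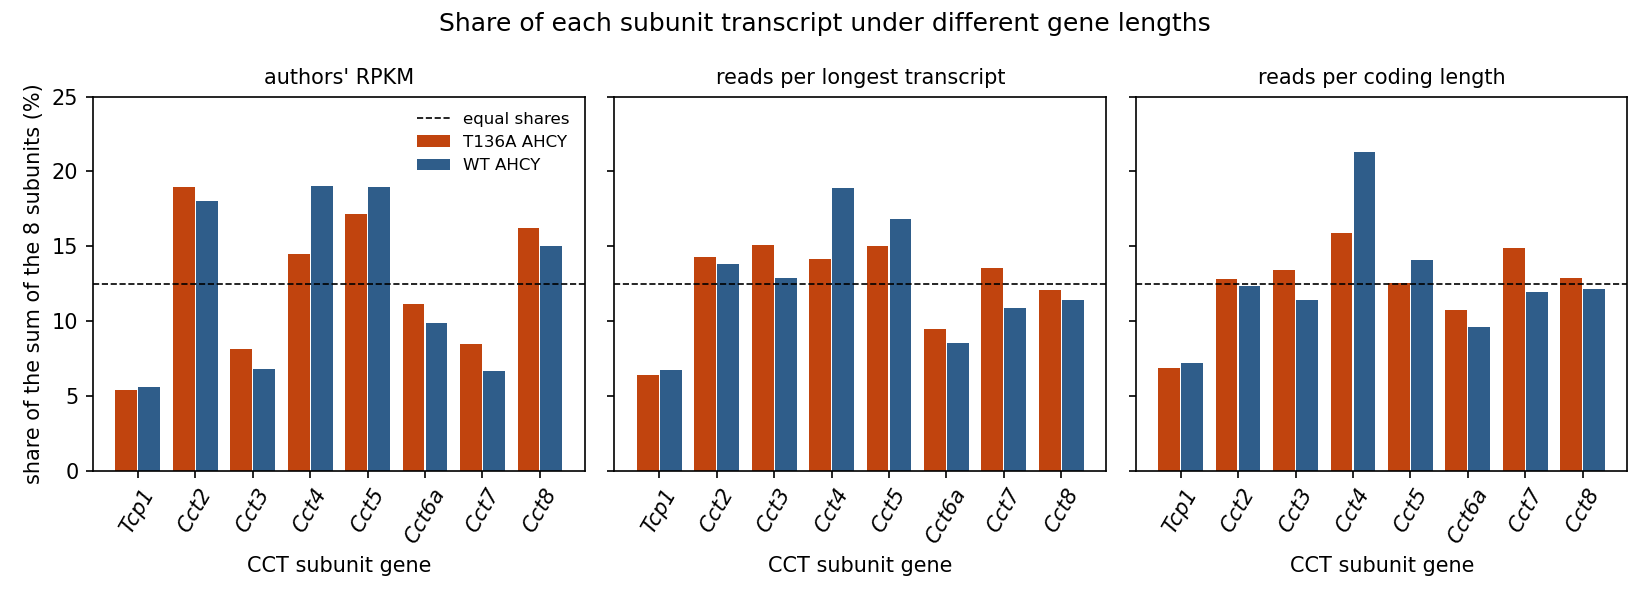
Share of each subunit in the sum of the 8 (vertical axis, percent), in the T136A library (left bar of each pair) and the WT library (right bar), from deposited RPKM, from reads per longest transcript and from reads per coding length; the dashed line marks equal shares of 12.5%. Tcp1 is lowest in all panels, and Cct4 has the smaller share in the T136A library in each panel. Cct3 and Cct7 lie nearer the dashed line in the panels whose lengths leave out retained introns, with the same reads.

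Genes of other complexes can be set beside this spread in RPKM, though equal numbers of every product are not assumed for them. The SD of log2 RPKM among subunits was 0.86 in the T136A library and 0.92 in the WT library for the 14 subunits of the 20S proteasome core, and 0.99 in the T136A library and 0.75 in the WT library for the 6 subunits of prefoldin. For the 6 subunits of the MCM2-7 helicase, which opens DNA at replication, it was 0.58 in the T136A library and 0.56 in the WT library. The 8 genes of the actin-branching Arp2/3 complex had 0.55 in the T136A library and 0.67 in the WT library. CCT, at 0.64 in the T136A library and 0.75 in the WT library, lay within the range of these complexes in RPKM. These SDs also carry the gene lengths behind RPKM, and per coding length CCT had 0.37 in the T136A library and 0.44 in the WT library. The other complexes were not measured per coding length, so no comparison on that scale is given. The SD of the log2 folds, with no added RPKM, was 0.24 for CCT, 0.14 for MCM2-7, 0.29 for prefoldin, 0.36 for Arp2/3 and 0.42 for the proteasome core. All 6 MCM genes had log2 ratios below 0 on the scale with 1 RPKM added (median -0.24), whereas the medians on that scale were 0.26 for the proteasome core and 0.48 for Arp2/3. In the proteasome core, Psmb2 had the highest ratio, at 195 RPKM in the T136A library and 80.3 RPKM in the WT library.

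Several subunit genes share their edges with a gene on the other strand, and no rule for strand in the counting is given in the sources used here, so reads from shared stretches cannot be told apart. The start of Cct6a overlaps that of Psph, which encodes the last enzyme of serine synthesis, by 452 bases. Psph was at 12.7 RPKM in the T136A library and 23.6 RPKM in the WT library, a log2 ratio of -0.84. Cct7 overlaps Pradc1 by 457 bases at its start, and Pradc1 was at 9.28 RPKM in the T136A library and 15.1 RPKM in the WT library. Tcp1 overlaps the start of Mrpl18, a gene of the mitochondrial ribosome, by 645 bases, with Mrpl18 at 43.4 RPKM in the T136A library and 53.9 RPKM in the WT library. In each of these 3 head-to-head pairs the subunit gene had a log2 ratio above 0 and its partner one below 0. A log2 ratio above 0 was found for 7 of the 8 subunits and for 47.4% of all tested genes. The partners starting closest to Cct3, Cct5 and Cct8 (Tsacc, Fam173b and B130034C11Rik) were all under 1 RPKM in both libraries. At its far end Cct8 overlaps Usp16, a histone H2A deubiquitinase, by 192 bases, with Usp16 at 4.13 RPKM in the T136A library and 2.51 RPKM in the WT library. Tcp1 overlaps Acat3 by 1255 bases, and Acat3 was at 0.162 RPKM in the T136A library and 0.292 RPKM in the WT library. Small nucleolar RNA genes lie inside Tcp1 (Snora20, Gm26130) and Cct6a (Gm23245, Snora15). Snora20 and Gm23245 were in the tables, each listed at 0 in the T136A library and below 1 RPKM in the WT library.

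Near-identical copies elsewhere could also share reads. A search of the subunit transcripts against all annotated transcripts (at least 85% identity over at least 200 bases) found processed pseudogenes of Cct3, Cct4, Cct7 and Tcp1. Of these, the Cct4 copy Gm15495 was in the tables, at 0.0414 RPKM in the T136A library and listed at 0 in the WT library. Outside the overlapping partners, the longest Tcp1 transcript matched Acat2, an enzyme that makes acetoacetyl-CoA, at 98.7% identity over 445 bases. Acat2 was at 38.7 RPKM in the T136A library and 21.7 RPKM in the WT library. How far such reads enter the values of Tcp1 was not tested.

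The paralogues of CCT subunits and the CCT-like genes were at 12.1 RPKM or less. Cct6b, the testis form of CCT-zeta, had 8 reads in the T136A library and 18 reads in the WT library, a ratio of 0.423 with a wide interval from 0.159 to 1.02. Cct8l1, a testis relative of Cct8, had 3 reads in the T136A library and 0 in the WT library, where a count of 0 allows up to 3 reads by a one-sided 95% limit. The CCT-like genes Mkks, Bbs10 and Bbs12 serve the assembly of the ciliary BBSome complex. Mkks was at 10.1 RPKM in the T136A library and 12.1 RPKM in the WT library. Bbs10 was at 2.35 RPKM in the T136A library and 2.45 RPKM in the WT library, and Bbs12 at 1.32 RPKM in the T136A library and 0.633 RPKM in the WT library. The mitochondrion has a chaperonin of its own. Hspd1, its ring protein, stood at 742 RPKM in the T136A library and 258 RPKM in the WT library, a fold of 2.87 (2.81 to 2.93). Its lid, Hspe1, was at 548 RPKM in the T136A library and 520.0 RPKM in the WT library, a fold of 1.05 (1.03 to 1.08).

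Prefoldin, which hands clients to CCT, was higher in 4 of 6 subunit transcripts (47.4% of all genes), with a median log2 ratio of 0.33. None was at least 1.5-fold higher or lower (10.4% and 11.3% of all genes). Pfdn1 was highest in the ratio, with 146 RPKM in the T136A library and 105 RPKM in the WT library. Pfdn6 (103 RPKM in the T136A library and 78.4 RPKM in the WT library) and Pfdn5 (79.0 RPKM in the T136A library and 60.2 RPKM in the WT library) came next. Vbp1, the remaining higher one, was at 66.8 RPKM in the T136A library and 54.9 RPKM in the WT library. Pfdn2, at 77.3 RPKM in the T136A library and 78.2 RPKM in the WT library, had an interval that included a fold of 1. Pfdn4 was lower, at 19.4 RPKM in the T136A library and 23.2 RPKM in the WT library.

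Of 6 genes listed as phosducin-like or other cofactors, Ptges3 among them, all had a log2 ratio above 0, against 47.4% of all genes. At least 1.5-fold higher were 2, against 10.4% of all genes. These were the phosducin-like genes Pdcl, which assists the folding of G protein beta subunits by CCT, and Pdcl3. Pdcl had 21.9 RPKM in the T136A library and 11.1 RPKM in the WT library, a fold of 1.97 (1.804 to 2.16). Pdcl3 had 25.5 RPKM in the T136A library and 13.1 RPKM in the WT library, a fold of 1.96 (1.81 to 2.12). Their folds exceeded that of every CCT subunit, at levels well below them. Txndc9, a thioredoxin-like CCT binder, was at 14.3 RPKM in the T136A library and 11.2 RPKM in the WT library. The CCT-binding protein Pdcd5 was at 35.03 RPKM in the T136A library and 30.2 RPKM in the WT library. The HSP90 cochaperone Ptges3 was at 197 RPKM in the T136A library and 169 RPKM in the WT library. Pdcl2, mostly a germ cell gene, was at 3.69 RPKM in the T136A library and 2.92 RPKM in the WT library, with an interval that included a fold of 1.

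Most transcripts of the classical clients were also higher in the T136A library. Of 16 actin and tubulin genes, 12 had a log2 ratio above 0, against 47.4% of all genes, with a median of 0.34. At least 1.5-fold higher were 3 (10.4% of all genes), at least 2-fold higher 1 (3.13%) and at least 1.5-fold lower none (11.3%). These counts depended on the scaling between libraries: 5 genes were at least 1.5-fold higher after scaling to the median ratio or a trimmed mean and 6 with the upper quartile, and 2 were at least 2-fold higher with each of them. With a minimum of 5 RPKM in place of 1, the median of the list was 0.46. Tubb4b, a beta-tubulin, stood at 536 RPKM in the T136A library and 177 RPKM in the WT library. Tuba4a followed at 45.5 RPKM in the T136A library and 22.8 RPKM in the WT library, and Tubb5 at 751 RPKM in the T136A library and 468 RPKM in the WT library. The lowest ratios were those of Tuba1a (128 RPKM in the T136A library and 156 RPKM in the WT library), Tube1 and Tubd1. Tubulin and actin genes have close copies, so their separate values are uncertain. The cofactors that join alpha- and beta-tubulin after CCT had a median of 0.02, with 3 of 6 above 0 (47.4% of all genes). Tbcb, Tbcd and Tbca had log2 ratios of 0.43, 0.22 and 0.20, and Arl2, Tbce and Tbcc had -0.47, -0.35 and -0.15.

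CCT genes are known targets of the heat shock factor HSF1, so other cytosolic chaperones of that response were set beside them. Of 16 such genes and their regulators at or above 1 RPKM, 10 were at least 1.5-fold higher, against 10.4% of all genes. At least 2-fold higher were 6, against 3.13%. These counts have 1 RPKM added to each value, and the median log2 ratio of the list was 0.80. None was at least 1.5-fold lower on that scale, against 11.3% of all genes, though 1 was with 0.1 RPKM added. Hspa8, the constitutive HSP70, stood at 967 RPKM in the T136A library and 219.5 RPKM in the WT library, a fold of 4.41 (4.33 to 4.48). Its partner Dnaja1 was at 55.2 RPKM in the T136A library and 16.3 RPKM in the WT library, and the inducible Hspa1b at 6.73 RPKM in the T136A library and 1.57 RPKM in the WT library. Hspa1a, a near copy of Hspa1b, stayed under 1 RPKM in both. The factor Hsf1 itself was at 25.6 RPKM in the T136A library and 38.4 RPKM in the WT library, and Hsf2 at 4.07 RPKM in the T136A library and 6.16 RPKM in the WT library. In plain RPKM, with nothing added, both were just past 1.5-fold lower in the T136A library. Bag3, also induced by heat shock, was at 10.5 RPKM in the T136A library and 13.9 RPKM in the WT library. The highest CCT log2 ratio, 0.59 for Cct7, lay below the median of this chaperone list.

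**Figure D4:**
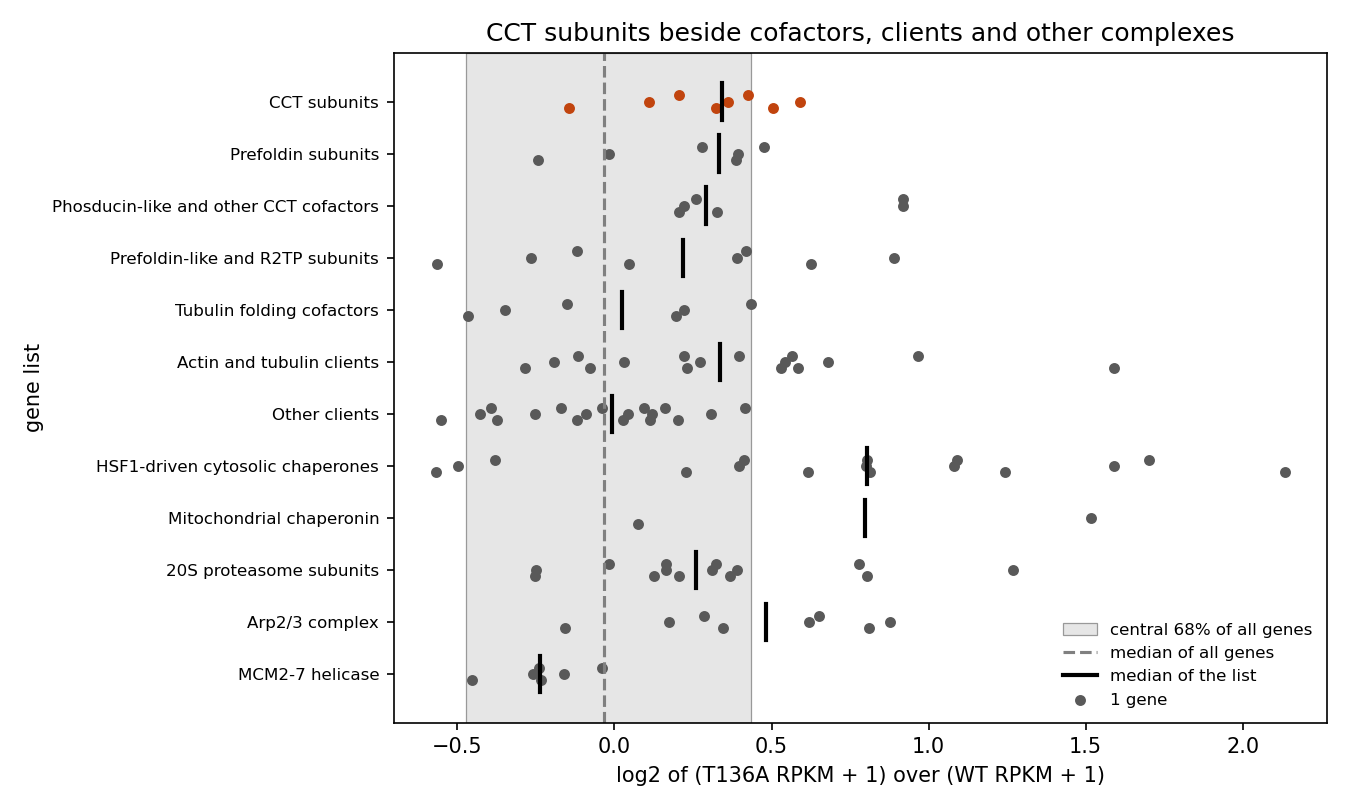
Log2 ratio of T136A over WT with 1 RPKM added to each value (horizontal axis) for each gene at or above 1 RPKM, by gene list; vertical bars are list medians, the grey band is the central 68% of all genes and the dashed line their median. CCT subunits (top row) have a median of 0.34, near those of prefoldin (0.33) and of actin and tubulin (0.34). The median of the heat shock chaperones is higher (0.80). With a minimum of 5 RPKM in place of 1, the actin and tubulin median was 0.46.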

How the data were processed

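The authors deposited 1 value per Ensembl gene for each of 2 libraries. The unit is not named, and the deposited values were read as RPKM because value times union exon length (GENCODE M21, GRCm38) times 1 constant per library was whole, within 0.01, for 90.0% of positive values in the T136A library and 89.9% in the WT library. Per the submitters' processing notes, CASAVA 1.8 and the mm9 build were used. The sources used here name no aligner, counting program or rule for strand. Per the labels' protocols, libraries were made from Trizol RNA with an Illumina TruSeq RNA kit. Symbols matched 25696 of 25749 identifiers. For 14 listed genes, Cct5 among them, the length nearest the union length that gave whole reads in both libraries was used (2809 bases for Cct5). Genes needed 1 RPKM in at least 1 library. Reads are not independent molecules, so intervals and floors cover counting error only. The named genes are the subunits, all chaperonin-like, prefoldin and cofactor genes, up to 3 genes at each end of every other list, and overlapping or adjacent genes. Because 2 libraries give each gene 1 ratio, no genes were named for a like pattern. The members and lists were chosen with earlier results of these data known. Steps were tested on simulated data. Python 3.11.15, NumPy 2.4.6, SciPy 1.17.1 and pandas 2.3.3 were used, with BLAST for copies.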

Additional observations from a re-analysis of the deposited data

How the results depend on the processing

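No alternative turned the direction of any subunit: the log2 ratio of Cct7 ran from 0.57 to 0.64 over 7 alternatives, that of Cct5 from 0.03 to 0.16 and that of Cct4 from -0.20 to -0.09. The median of the 8 was 0.38 after scaling to the median ratio, 0.38 with a trimmed mean of log ratios, 0.40 with the upper quartile and 0.30 after quantile normalization. With 5 RPKM added, or after quantile normalization, 0 subunits were at least 1.5-fold higher. The highest level over the lowest was 2.31 in the T136A library and 2.95 in the WT library per coding length, and 2.36 in the T136A library and 2.82 in the WT library per longest transcript. Without Tcp1 it was 2.34 in the T136A library and 2.85 in the WT library, and without Cct2 3.18 in the T136A library. Over all genes, 723 were at least 2-fold higher and 727 lower with 0.1 RPKM added, and 101 higher and 114 lower with 5 added, where 523 were at least 1.5-fold higher and 518 lower. With a minimum of 5 RPKM, 209 were at least 2-fold higher, 780 at least 1.5-fold higher and 903 at least 1.5-fold lower. With a minimum of 50 RPKM, 13.1% of 1438 genes were at least 1.5-fold higher and 9.46% lower, and 3.48% at least 2-fold higher and 4.24% lower. Fewer genes enter with a higher minimum, and the other causes were not tested. Of the shares of single subunits, 31 of 32 moved beyond counting error with the length used. The minimum of 50 RPKM, the length of Cct5 and the stand-ins for Cct6a were chosen after seeing the data. No paired analysis was possible because each genotype had 1 library.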

Other observations

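Further gene groups work beside CCT. In the R2TP and prefoldin-like assembly, which builds polymerase and kinase complexes, 5 of 8 measured genes had a log2 ratio above 0 (median 0.22). Of all genes, 47.4% had one above 0. Rpap3 was at 30.4 RPKM in the T136A library and 15.9 RPKM in the WT library. The ATPase gene Ruvbl1 was at 95.1 RPKM in the T136A library and 61.3 RPKM in the WT library, and its partner Ruvbl2 at 172 RPKM in the T136A library and 128 RPKM in the WT library. At the lower end, Pdrg1 was at 14.4 RPKM in the T136A library and 21.8 RPKM in the WT library, and Uxt and Pih1d1 had log2 ratios of -0.27 and -0.12.

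Clients of CCT other than actin and tubulin were split evenly. Of 18 genes, 9 had a log2 ratio above 0 (47.4% of all genes) and 9 below, with a median of -0.01. None was at least 1.5-fold higher or lower with 1 RPKM added to each value (10.4% and 11.3% of all genes). With 0.1 RPKM added, 1 was at least 1.5-fold lower. The telomerase cofactor Wrap53 (34.3 RPKM in the T136A library and 25.5 RPKM in the WT library), the mTOR subunit Mlst8 and the mitotic kinase Plk1 were at the upper end. The tumour suppressor Vhl (17.9 RPKM in the T136A library and 26.7 RPKM in the WT library), Gnb4 and Strn3 were at the lower end. Gnb4, a G protein beta subunit, had 0.630 RPKM in the T136A library and 1.19 RPKM in the WT library, 1.89-fold lower (1.54 to 2.33) in plain RPKM.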
